A study of Saccharomyces cerevisiae with 10 samples.

Results

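Day 7 was compared with Day 3 of a yeast evolution experiment in all 3515 of the 3515 merged ATAC-seq peaks of the series, using the raw counts of 2 libraries per day, 4 of the 10 libraries deposited. ATAC-seq cuts accessible DNA with the Tn5 transposase, so that a higher count marks less compact chromatin. The cells are haploid W303 Saccharomyces cerevisiae of mating type alpha that carry YFP driven by the GAL1 promoter, with a histidine marker (HIS3 in the labels, HIS5 in the study's methods), at the HO locus. Populations were sorted every day for the cells with the lowest YFP expression until Day 7, so that both days lie within the selection period and the comparison asks what changed as selection continued. Frozen populations of both days were revived, grown in synthetic complete medium with 0.1% mannose, and then induced in the same medium with 0.1% mannose and 0.2% galactose. All 4 libraries come from 1 evolved population, L3, and the labels do not say that they were separate cultures, so that the p-values measure the spread between libraries of that population only, which may be technical. Both Day 3 libraries were sequenced in 2 runs and both Day 7 libraries in 1, so that sequencing run and day cannot be told apart. The Day 3 libraries held 14857400 and 11713101 counts in peaks, and the Day 7 libraries 18693542 and 15873696. The smallest count of any peak was 86. Across peaks, log2 CPM (counts scaled to library size by TMM) correlated at 0.996 between the Day 3 libraries, at 0.999 between the Day 7 libraries, and at 0.985 to 0.988 between the days.

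Yeast growing on a fermentable sugar keeps genes for other carbon sources closed or silent. Galactose opens the GAL genes through the activator Gal4, which the repressor Gal80 restrains and the galactose sensor Gal3 releases. When sugar runs low, the kinase Snf1 and the activators Adr1, Cat8 and Sip4 turn on genes for ethanol, acetate, glycerol and fatty acid use, and Msn2 and Msn4 turn on stress and storage carbohydrate genes. In promoters, these changes go with the loss of nucleosomes, which the assay reads as a higher count.

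The peaks of the GAL network are the loci closest to the selected reporter, and their Gal4 motifs are shown first. The motif, CGG and CCG with 11 bases of any kind between them, searched on both strands, was present in 294 of the 3515 peaks (8.36%), in 6.80% of the peaks higher on Day 7 and in 8.16% of those lower. It had 3 matches in the GAL10 peak, which is the promoter shared by GAL1 and GAL10, 5 in the GAL2 promoter peak, and 1 each in the peaks of GAL7 and GAL80. The plus strand of R64 around these matches is printed with the matches in capitals. The last 2 matches of the GAL2 window overlap and run together.
GAL1-GAL10 chrII:278553-278636: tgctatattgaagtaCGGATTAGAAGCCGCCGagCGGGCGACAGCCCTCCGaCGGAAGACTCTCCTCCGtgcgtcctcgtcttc
GAL2 chrXII:289667-289915: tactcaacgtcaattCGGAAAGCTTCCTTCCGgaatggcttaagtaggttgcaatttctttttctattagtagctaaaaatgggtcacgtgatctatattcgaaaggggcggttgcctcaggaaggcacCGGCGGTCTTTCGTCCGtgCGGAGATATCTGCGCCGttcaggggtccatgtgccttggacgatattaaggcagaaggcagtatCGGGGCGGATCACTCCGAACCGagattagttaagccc
GAL7 chrII:275688-275734: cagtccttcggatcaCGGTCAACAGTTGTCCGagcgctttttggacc
GAL80 chrXIII:171407-171453: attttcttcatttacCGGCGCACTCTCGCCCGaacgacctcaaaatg
The reporter carries another copy of the GAL1 promoter, and reads from that copy and from the GAL1-GAL10 locus cannot be told apart.

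All 5 called GAL network peaks were lower on Day 7, that is, more compact. The network list of 13 genes was represented by 7 peaks of 6 genes, of which 5 fell, 0 rose and 2 were not called, with a median log2-fold change of -0.46 against 0.0024 over all peaks. Among all peaks 14.7% were called higher and 17.4% lower. Counted instead over the 10 peaks that hold the start of a listed gene, 5 fell and 1 rose, with a median of -0.10. GAL10 encodes the epimerase of galactose breakdown and GAL1 the galactokinase. Their shared promoter peak stood at 542 and 594 CPM in the Day 3 libraries and at 389 and 391 CPM in those of Day 7. The Day 7 libraries were nearly identical, and each lay below the Day 3 values. Whether fewer cells had this promoter open or it was less open in each cell cannot be told apart in bulk libraries. The log2-fold change was -0.54 (SE 0.07, edgeR p_adj = 1.39e-09).

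GAL80, the repressor of Gal4, moved in the same direction as the genes it represses. Its promoter peak (chrXIII:171034-171752) read 152 and 161 CPM on Day 3 and 105 and 110 CPM on Day 7, a log2-fold change of -0.54 (SE 0.06, edgeR p_adj = 9.14e-11). The peak of GAL7 (chrII:275380-277089), the uridylyltransferase that acts between the kinase and the epimerase, read 317 and 304 CPM on Day 3 and 245 and 239 CPM on Day 7. Its change of -0.36 (SE 0.06, edgeR p_adj = 6.62e-07) was the smallest of these 5. The promoter of GAL2, the galactose permease, read 443 and 503 CPM on Day 3 and 349 and 341 CPM on Day 7, a log2-fold change of -0.46 (SE 0.07, edgeR p_adj = 5.21e-08). A further short peak within the GAL2 gene (chrXII:291415-291782), with 0 Gal4 matches, changed more, from 50.5 and 49.2 CPM to 18.0 and 19.2 CPM (log2-fold change -1.42, SE 0.13, edgeR p_adj = 3.88e-15). The libraries of the days did not overlap for any of the 5 peaks, and each stayed called in every refit that kept it. The refit on peaks with a mean count of at least 500 left out the short GAL2 peak. The stricter limit of 0.5 on the absolute log2-fold change left out GAL7 and the GAL2 promoter.

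Other genes of the network varied. GAL3 starts inside a peak assigned to YDR008C, which read 559 and 595 CPM on Day 3 and 584 and 564 CPM on Day 7 (log2-fold change -0.0082, SE 0.07, edgeR p_adj = 0.952). GAL4 starts inside a peak assigned to YPL247C, which changed from 452 and 486 CPM to 400 and 420 CPM (log2-fold change -0.19, SE 0.07, edgeR p_adj = 0.0195). PGM2 encodes the phosphoglucomutase that links galactose to glycolysis, and the peak over its start, assigned to YMR105W-A, rose by 0.31 (SE 0.08, edgeR p_adj = 0.00203). The list's 2 remaining peaks, of the uracil permease gene FUR4, which neighbours GAL1, and of the cyclin gene PCL10, a Gal4 target, had log2-fold changes of 0.046 (edgeR p_adj = 0.593) and 0.013 (edgeR p_adj = 0.917).

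Beyond the GAL network, 1128 of the 3515 peaks (32.1%) differed between the days at p_adj under 0.05 in edgeR's quasi-likelihood test with Benjamini-Hochberg adjustment. Of these, 515 were higher and 613 lower on Day 7. The paper reports far fewer changes between the same days. It used DESeq2 on peaks merged from these days only and names GAL2, GAL7, GAL10 and GIT1 among the changed genes. It describes the number of changed peaks as negligible. DESeq2 on the counts used here called 767 peaks, 323 higher and 444 lower. The reason for the difference in number from the paper was not tested. The changes were small, with a median of 0.25 on the log2 scale for called rises and of -0.31 for called falls, and 180 peaks (5.12%), 46 rises and 134 falls, passed an absolute log2-fold change of 0.5. The libraries of the days did not overlap in any of the 1128 called peaks, where 65.1% of all peaks had libraries that did not overlap. With either Day 7 library left out the count fell to 404 or 417. The chi-square statistic between replicates was 15.5 per peak on Day 3 and 6.17 on Day 7, so the Day 7 replicates were the closer pair. Scaling by total counts instead of TMM moved the split to 313 higher and 573 lower.

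Rises and falls lay in different places. Promoters held 91.3% of the called rises and 68.2% of the called falls, where 85.4% of all peaks were promoter peaks. Of 3001 promoter peaks, 470 rose and 418 fell. Of the 514 peaks outside promoters, 45 rose and 195 fell, with a median log2-fold change of -0.14. These were also the weaker peaks, with a median level of 75.4 CPM against 149 CPM in promoters. The 10% of peaks with the lowest level held 125 called falls and 9 rises among its 352 peaks. Among these, 98 of 166 peaks outside promoters fell, as did 27 of 186 promoter peaks. GC content moved with the result as well, at a median of 37.5% in called rises and 39.5% in called falls. After loess offsets on level, 62 peaks outside promoters rose and 166 fell, and after loess offsets on GC content, 81 rose and 234 fell. The part of level and of GC content in the changes was not tested beyond these offsets.

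**Figure D1:**
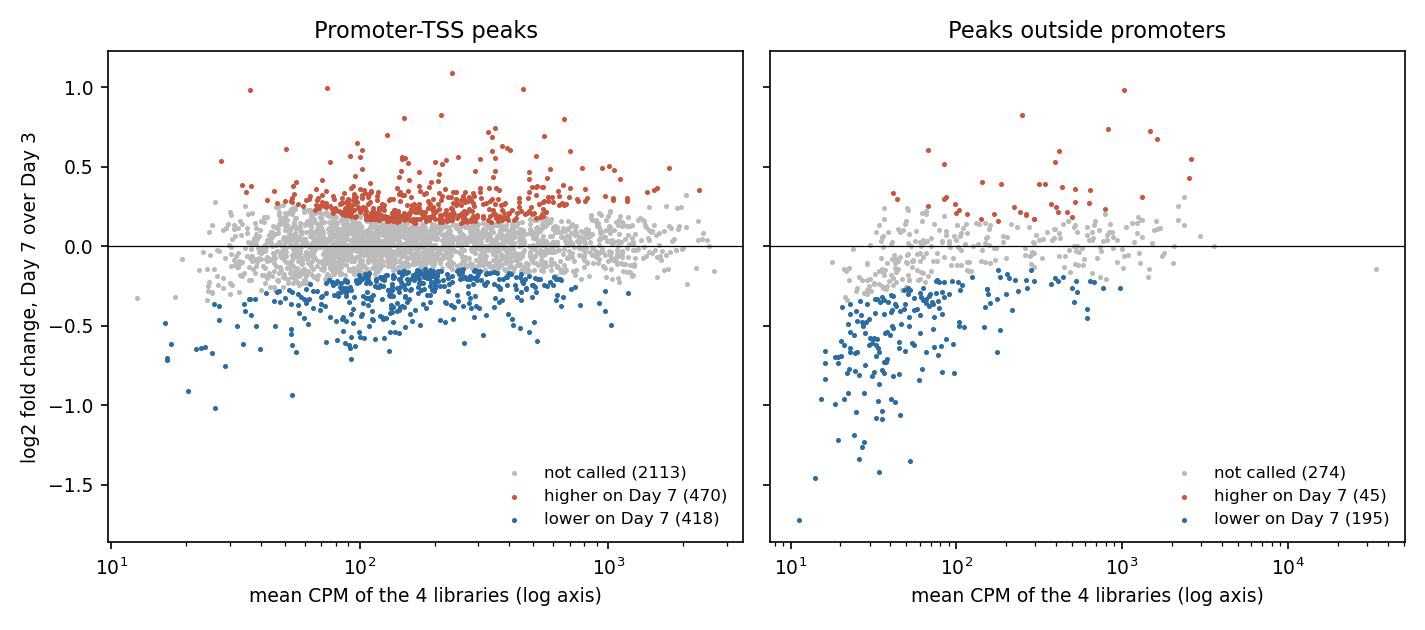
Log2-fold change from Day 3 to Day 7 of each peak (y axis) against its mean CPM over the 4 libraries (x axis, log scale), for promoter peaks (left) and other peaks (right). Rises (red) lie mostly among promoter peaks (470 of 515), and the falls (blue) outside promoters (195) gather at low levels.

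The 10 largest called rises included several genes of ethanol, fatty acid and storage carbohydrate use. UBP5, a ubiquitin-specific protease gene, rose most. Its promoter peak (chrV:459936-460562) read 146 and 154 CPM on Day 3 and 331 and 307 CPM on Day 7, a 2.13-fold rise (log2-fold change 1.09, SE 0.06, edgeR p_adj = 9.46e-26). YIG1, whose product acts in glycerol synthesis, rose from 44.6 and 54.5 CPM to 103 and 94.0 CPM (log2-fold change 0.996, SE 0.09). SPG1, a gene needed for survival in stationary phase, rose from 307 and 301 CPM to 627 and 580 CPM (log2-fold change 0.99, SE 0.07). Its peak also holds the start of MIC26, a gene of the mitochondrial inner membrane organizing complex. The remaining members were ADH2 (0.98), the subtelomeric YOR392W (0.98), the mitosis phosphatase gene MIH1 (0.83), the regulator HMS1 (0.82), FOX2 (0.81), GIP2 (0.80) and ATH1 (0.75). The HMS1 peak lies past the end of that gene and holds the start of CRS5, which encodes a metallothionein. All 10 stayed called under each of the 14 refits.

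**Figure D2:**
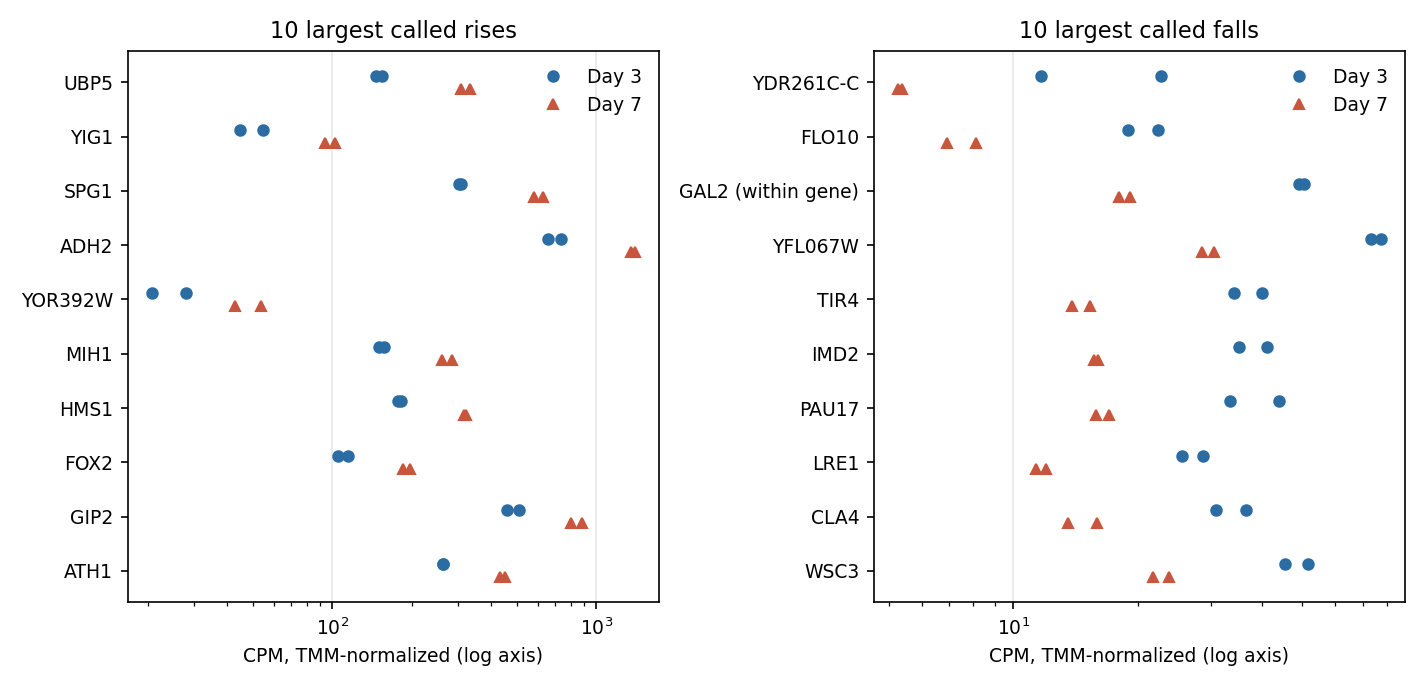
CPM (x axis, log scale) of the 10 called peaks with the largest rise (left) and the largest fall (right), with 2 Day 3 libraries (blue circles) and 2 Day 7 libraries (red triangles) each. The days do not overlap in any row, since only peaks without overlap were eligible. The rising peaks reach from 20.8 to 1397 CPM, whereas the falling peaks all lie at or below 77.4 CPM.

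Several genes for ethanol, acetate and lactate use became less compact. The list of gluconeogenesis and acetate use held 24 peaks of 23 genes, of which 12 rose, 2 fell and 10 were not called, with a median log2-fold change of 0.20 (6 rose with either Day 7 library left out and in a joint fit of all 10 libraries). ADH2 encodes the alcohol dehydrogenase that oxidizes ethanol. Its peak (chrXIII:872173-875251) spans the gene, its promoter and the start of the neighbour UBP15. It read 655 and 735 CPM on Day 3 and 1397 and 1349 CPM on Day 7 (log2-fold change 0.98, SE 0.10, edgeR p_adj = 4.40e-13). ALD4, the mitochondrial aldehyde dehydrogenase that yields acetate, rose from 1011 and 1211 CPM to 1905 and 1772 CPM (log2-fold change 0.73, SE 0.11). ADY2, an acetate transporter, rose from 571 and 659 CPM to 1044 and 1009 CPM (log2-fold change 0.74, SE 0.09). The days did not overlap in any of these 3 peaks.

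Later steps of the same route changed too. ACS1, JEN1, SIP4, ICL1 and GUT1 are named here after their values were seen. ACS1, which activates acetate to acetyl-CoA, rose from 1172 and 1322 CPM to 2040 and 1936 CPM (log2-fold change 0.67, SE 0.12, edgeR p_adj = 3.70e-06). JEN1, the lactate and pyruvate permease, had a log2-fold change of 0.55 (SE 0.15, edgeR p_adj = 0.00227), and SIP4, an activator of gluconeogenic genes, one of 0.37 (SE 0.06, edgeR p_adj = 1.47e-06). ICL1, the isocitrate lyase of the glyoxylate cycle, rose by 0.18 (SE 0.06, edgeR p_adj = 0.0204). GUT1, the glycerol kinase gene, starts inside a peak assigned to YHL030W-A that rose from 309 and 326 CPM to 496 and 471 CPM (log2-fold change 0.61, SE 0.07). That peak also holds the start of the neighbour GOS1. The list's 2 falls were peaks at gene ends and not promoters. They belonged to PCK1, the phosphoenolpyruvate carboxykinase gene (-0.31, SE 0.09), and to ADR1, the activator of ADH2 (-0.30, SE 0.09). Counted over promoter peaks alone, 5 of 11 rose and 0 fell. That count leaves out ADH2, ADY2, ALD4, ACS1 and JEN1, whose long peaks were not annotated to promoters either, though each holds the gene start. Of the 25 peaks that hold the start of a listed gene, 15 rose and 1 fell, with a median of 0.22.

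The carbon source responsive element read by Cat8 and Sip4 has a core of CGG and GGA with 6 bases of any kind between them. This core was searched on both strands and was present in 16.0% of all peaks, 15.7% of called rises, 13.2% of called falls and 26.1% of the 46 rises past 0.5. These shares depend on peak length, whose median was 868 bases over all peaks and 985.5 in the 46 rises. In the 300 bases around the centre the shares were 4.55% of all peaks and 6.52% of the 46. The match upstream of the gene start is shown for the 4 acetate genes with the largest rises, on the plus strand of R64, with the core or its reverse complement in capitals.
ADH2 chrXIII:874785-874836: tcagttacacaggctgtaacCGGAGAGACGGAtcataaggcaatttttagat
ADY2 chrIII:133597-133648: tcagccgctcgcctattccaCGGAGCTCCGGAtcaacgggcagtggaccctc
ALD4 chrXV:1039004-1039055: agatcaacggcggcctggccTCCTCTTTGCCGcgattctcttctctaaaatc
ACS1 chrI:45363-45414: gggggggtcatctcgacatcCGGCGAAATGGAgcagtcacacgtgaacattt
A match of letters is a description of the sequence and not a bound site.

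Mitochondrial and peroxisomal fuel use showed smaller changes. Of 16 TCA cycle peaks, 8 rose and 0 fell, with a median log2-fold change of 0.13 (3 rose with either Day 7 library left out). CIT3, a mitochondrial citrate and methylcitrate synthase, rose from 312 and 329 CPM to 467 and 460 CPM (log2-fold change 0.53, SE 0.06, edgeR p_adj = 1.94e-10). Its peak also covers the start of PDH1, which acts in propionate breakdown. LSC2, a subunit of succinyl-CoA ligase, rose from 153 and 155 CPM to 207 and 186 CPM (0.35, SE 0.06), and SDH4, the membrane anchor of succinate dehydrogenase, rose by 0.27 (SE 0.06). The genes of the respiratory chain itself moved little, with 4 of 29 peaks higher (STF1, COX7, TIM11 and ATP5) and 1 lower (CYC7, -0.39, SE 0.06), a rising share of 13.8% that is close to the 14.7% of all peaks. Without the first Day 3 library 8 rose and 4 fell. Mitochondrial import and biogenesis had 8 rises and 1 fall among 40 peaks (3 and 4 rises without the first and the second Day 7 library), led by MAS1, a subunit of the presequence protease (0.42, SE 0.07).

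Of 30 peroxisome and fatty acid oxidation peaks, 8 rose and 5 fell. FOX2, the multifunctional beta-oxidation enzyme, rose from 105 and 115 CPM to 198 and 186 CPM (log2-fold change 0.81, SE 0.06, edgeR p_adj = 6.45e-18). CTA1, the peroxisomal catalase, rose from 235 and 264 CPM to 413 and 406 CPM (0.72, SE 0.06). CAT2, the carnitine acetyltransferase that carries acetyl units into mitochondria, rose from 277 and 264 CPM to 412 and 410 CPM (0.60, SE 0.06). The other rises were of POX1, the acyl-CoA oxidase (0.29, SE 0.06), and of the biogenesis genes PEX17, PEX4 and PEX29. The falls included the promoter of POT1, the thiolase that ends each round of beta-oxidation (-0.20, SE 0.06), PEX28 (-0.28, SE 0.06) and PEX34 (-0.27, SE 0.08), the latter pair acting in peroxisome number and size. IDP3, the peroxisomal isocitrate dehydrogenase, had both a called rise at its promoter (0.53, SE 0.08) and a called fall at its end (-0.32, SE 0.12). With either Day 7 library left out, 5 peaks of this list rose and 1 fell.

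Storage carbohydrate genes showed 6 rises and 2 falls among 14 peaks, with a median log2-fold change of 0.13 (2 and 4 rises without the first and the second Day 7 library). GIP2, a regulatory subunit that directs protein phosphatase Glc7 toward glycogen, rose from 458 and 508 CPM to 883 and 803 CPM (log2-fold change 0.80, SE 0.08, edgeR p_adj = 4.99e-13). ATH1, the acid trehalase that lets cells use trehalose, rose from 262 and 263 CPM to 449 and 431 CPM (0.75, SE 0.06, edgeR p_adj = 2.09e-16). The 2 glycogen synthase genes moved in opposite directions. GSY2, the main form, changed from 425 and 489 CPM to 595 and 546 CPM (0.32, SE 0.07), and GSY1 from 532 and 661 CPM to 514 and 491 CPM (-0.25, SE 0.08, edgeR p_adj = 0.00968). PGM1, the minor phosphoglucomutase, fell by 0.33 on the log2 scale (SE 0.06).

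General stress genes rose in 9 of 22 peaks and fell in 2, with a median log2-fold change of 0.16 (3 and 4 rises without the first and the second Day 7 library). Besides CTA1, the leading members were CIN5, a salt tolerance transcription factor (335 and 323 CPM to 502 and 496 CPM, 0.60, SE 0.07), and GPX1, a glutathione peroxidase (182 and 180 CPM to 267 and 259 CPM, 0.54, SE 0.06). The falls were TSA1, a peroxiredoxin (-0.19, SE 0.08, edgeR p_adj = 0.0422), and GTT1, a glutathione transferase (-0.15, SE 0.06, edgeR p_adj = 0.0470), and both were lost under RLE size factors. Heat shock proteins had 6 rises and 3 falls among 23 peaks, but 2 rises and 2 falls without the first Day 7 library, 2 and 3 without the second, 10 and 7 without the first Day 3 library, and 1 and 3 in the joint fit. HSP10 (0.37, SE 0.07) and HSP78 (0.27, SE 0.06), mitochondrial chaperones, were among the rises, and HSP30, a plasma membrane protein (-0.54, SE 0.10), among the falls.

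The stress response element AGGGG, the motif of Msn2 and Msn4, was searched on both strands. It was present in 53.1% of all peaks, 61.6% of called rises, 47.8% of called falls, and 37 of the 46 rises past 0.5 (80.4%). In the 300 bases around the centre the shares were 23.2% of all peaks, 29.3% of called rises, 21.7% of called falls and 47.8% of the 46. GCGGGG, the core of the glucose repressor Mig1, was present in 12.5% of all peaks, 15.7% of called rises and 7.99% of called falls, and the fixed window gave 3.53%, 3.88% and 3.43%. In the 46 rises past 0.5 it was present in 26.1%, and in 8.70% in the fixed window. Neither AGGGG nor GCGGGG contains the other. Other motifs searched went both ways in the 46. Over whole peaks, that of Ste12 was present in 45.7% against 23.5% of all peaks, and that of Abf1 in 32.6% against 38.4%. Among the 10 largest rises, the peaks of YIG1, FOX2 and ATH1 hold 1 AGGGG each. The matches of YIG1 and FOX2 lie inside these genes, and that of ATH1 lies upstream of its gene start. Each is shown here on the plus strand with the match, CCCCT, in capitals.
YIG1 chrXVI:171097-171141: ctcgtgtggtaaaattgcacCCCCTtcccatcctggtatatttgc
FOX2 chrXI:456977-457021: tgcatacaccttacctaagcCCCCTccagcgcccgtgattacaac
ATH1 chrXVI:615055-615099: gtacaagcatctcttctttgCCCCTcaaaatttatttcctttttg
The UBP5 peak holds 3 matches and the GIP2 peak 5.

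Of 50 proteasome and ubiquitin peaks, 13 rose and 6 fell (3 rises with either Day 7 library left out). After UBP5, the rises were led by UBP13, another ubiquitin protease gene, which rose from 105 and 91.2 CPM to 167 and 152 CPM (0.70, SE 0.07), and by PRE5, an alpha subunit of the core proteasome (0.43, SE 0.07). The falls were led by RPN14, a proteasome assembly factor (-0.48), whose value was 0.063 after loess offsets on level, and included SSM4, a ubiquitin ligase of the endoplasmic reticulum (-0.31, SE 0.06), and UBP12 (-0.28, SE 0.08). The eisosome list, genes of plasma membrane furrows, had 5 rises and 1 fall among 12 peaks (3 and 2 rises without the first and the second Day 7 library, and 3 without the first Day 3 library). YNL194C, a gene of the SUR7 family, rose from 763 and 896 CPM to 1198 and 1154 CPM (0.50, SE 0.10). Glucose repression genes had 4 rises and 2 falls among 13 peaks, but 4 and 4 without the second Day 3 library, 2 and 0 without the second Day 7 library, and 2 and 2 in the joint fit. The rises included the repressors NRG1 (0.49, SE 0.09) and MIG3 (0.34, SE 0.07) as well as SAK1, a kinase that activates Snf1 (0.42, SE 0.09). SNF4, the gamma subunit of the Snf1 kinase, fell by 0.27 on the log2 scale (SE 0.06).

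**Figure D3:**
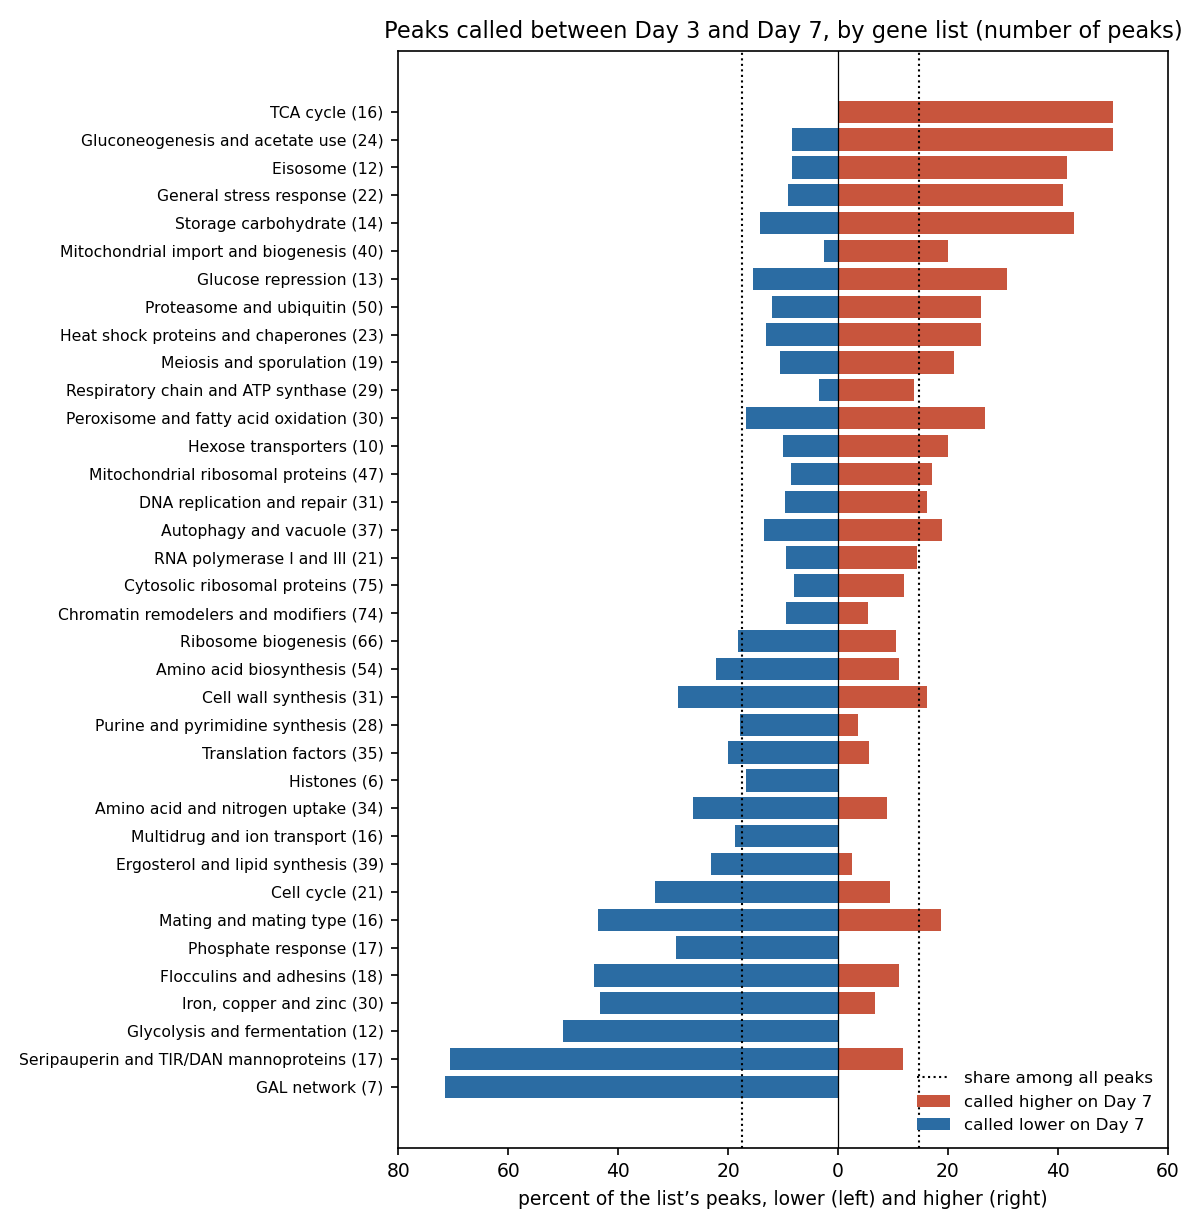
Percent of the peaks of each of 36 gene lists that were called higher (right, red) or lower (left, blue) on Day 7, with the number of peaks per list in parentheses. Dotted lines mark the shares over all 3515 peaks (14.7% and 17.4%), and lists are ordered by the difference of the shares, from the TCA cycle (8 of 16 higher) to the GAL network (5 of 7 lower).

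In the glycolysis and fermentation list, of 12 peaks 6 fell and 0 rose, with a median log2-fold change of -0.19 (2 and 1 falls without the first and the second Day 7 library). Counted instead over the 22 peaks that hold the start of a listed gene, 6 fell and 0 rose, with a median of -0.0088. PGK1, phosphoglycerate kinase, had a promoter peak that changed from 681 and 781 CPM to 602 and 571 CPM (-0.32, SE 0.08, edgeR p_adj = 0.00124). TDH3, the main glyceraldehyde-3-phosphate dehydrogenase, fell most at the end of its gene, from 108 and 101 CPM to 72.0 and 66.7 CPM (-0.59, SE 0.08), and HXK2, the hexokinase that also signals glucose repression, fell at its end by 0.49 on the log2 scale (SE 0.11). The promoter peaks of TPI1 (-0.23, SE 0.07) and PDC1 (-0.20, SE 0.07) also fell. The start of ENO2 lies in a peak assigned to YHR173C that fell by 0.32 on the log2 scale (SE 0.07), whereas the peaks holding the starts of ADH1 (0.24, edgeR p_adj = 0.136) and FBA1 (0.090, edgeR p_adj = 0.465) were not called.

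Hexose transporters had 2 rises and 1 fall among 10 peaks, and 1 rise and 2 falls without the first Day 3 library. HXT5, a transporter of slow growth and stationary phase, changed from 882 and 999.9 CPM to 1194 and 1113 CPM (0.29, SE 0.10), HXT3 rose by 0.39 (SE 0.06) at the gene end, and a peak within SNF3, the high-affinity glucose sensor, fell by 0.33 on the log2 scale (SE 0.06). The median of the list was 0.015.

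Cell surface genes were among the larger falls. Of 17 peaks of seripauperin and TIR/DAN mannoproteins, cell wall proteins made mainly in cold or without oxygen, 12 fell and 2 rose, with a median log2-fold change of -0.38 (7 and 8 falls without the first and the second Day 7 library). Members of the seripauperin family share sequence, and the treatment of reads that map to several copies is not given in the sources used here, so the values of single PAU genes are uncertain. TIR4 fell from 34.2 and 39.98 CPM to 15.3 and 13.9 CPM (-1.34, SE 0.14, edgeR p_adj = 2.23e-12), at a peak annotated to the gene end. PAU17 fell from 33.4 and 44.0 CPM to 15.8 and 17.0 CPM (-1.23, SE 0.14). The promoter peaks of the list fell as well, in 8 of 12, with a median of -0.26. Of the 9 peaks that hold the start of a listed gene, 3 fell and 2 rose, with a median of -0.064. SED1, the major wall protein of stationary phase, rose from 2037 and 2262 CPM to 3028 and 2762 CPM (0.43, SE 0.14, edgeR p_adj = 0.0155), and this call was lost in 3 of the 4 fits that left out a library.

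Flocculins and adhesins bind cells to each other and to surfaces. Their 18 peaks had 8 falls and 2 rises, with a median of -0.15, but of 8 promoter peaks 1 rose and 0 fell, so that the falls were of peaks outside promoters. FLO11 fell within the gene, from 61.1 and 62.4 CPM to 30.3 and 28.7 CPM (-1.06, SE 0.11, edgeR p_adj = 2.39e-12). FLO10 had 2 falls within the gene, from 19.0 and 22.4 CPM to 6.90 and 8.12 CPM (-1.46, SE 0.17) and from 42.2 and 47.4 CPM to 22.4 and 23.2 CPM (-0.97, SE 0.13). MSS11, an activator of FLO11, rose at its promoter from 305 and 312 CPM to 478 and 468 CPM (0.62, SE 0.06), and MGA1, a regulator of filamentous growth, rose by 0.39 (SE 0.06). Flocculin genes hold repeats and resemble each other, so reads could be split between copies. Among wall synthesis genes 9 of 31 peaks fell and 5 rose (5 falls and 1 rise with either Day 7 library left out). UTR2, a transglycosylase that joins chitin to glucan, fell from 326 and 310 CPM to 211 and 207 CPM (-0.61, SE 0.06, edgeR p_adj = 7.99e-14), and GAS5, a glucan transferase, fell by 0.38 on the log2 scale (SE 0.06). PIR3, a wall protein, rose by 0.39 (SE 0.08).

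Metal homeostasis fell in 13 of 30 peaks and rose in 2, with a median log2-fold change of -0.10, and here the promoters carried the falls (11 of 25). With either Day 7 library left out, 6 fell. CTR1, the high-affinity copper transporter, fell from 120 and 100.4 CPM to 73.5 and 75.3 CPM (-0.57, SE 0.08, edgeR p_adj = 9.23e-09). FET4, a low-affinity iron transporter, fell from 29.2 and 26.5 CPM to 16.7 and 19.2 CPM (-0.64, SE 0.14), and FTH1, a vacuolar iron transporter, fell at its end by 0.69 on the log2 scale (SE 0.08). The 2 rises, of the siderophore genes FRE3 (0.16, SE 0.06) and ARN2 (0.15, SE 0.06), were at the edge of the threshold (edgeR p_adj = 0.0325 and 0.0318). Phosphate response genes had 5 falls and 0 rises among 17 peaks (3 falls without the first Day 7 library). Among them PHO3, a secreted acid phosphatase, fell from 133 and 130 CPM to 95.3 and 95.3 CPM (-0.46, SE 0.07), and GIT1, a glycerophosphoinositol permease, fell by 0.39 on the log2 scale (SE 0.06).

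Cell cycle and mating genes had more falls than rises. Of 21 cell cycle peaks 7 fell and 2 rose, with a median of -0.11 (3 falls with either Day 7 library left out, 11 without the second Day 3 library). NRM1, a corepressor of G1 genes, fell from 266 and 280 CPM to 221 and 221 CPM (-0.31, SE 0.06), and DBF2, a kinase of mitotic exit, from 175 and 175 CPM to 145 and 145 CPM (-0.27, SE 0.06). MIH1, the phosphatase that opposes Swe1 at the entry into mitosis, rose from 157 and 150 CPM to 284 and 261 CPM (0.83, SE 0.06, edgeR p_adj = 1.38e-19). Of 16 mating peaks 7 fell and 3 rose (2 and 3 falls without the first and the second Day 7 library). FUS1, a pheromone-induced fusion gene, fell from 97.0 and 106 CPM to 67.9 and 72.7 CPM (-0.53, SE 0.08), and SST2, which damps pheromone signalling, fell by 0.45 on the log2 scale (SE 0.09). PRM8 (0.56, SE 0.06) and the kinase gene FUS3 (0.34, SE 0.06) rose.

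Short peaks inside or at the end of genes formed a group of falls that crossed the lists. Outside promoters, 159 of 330 peaks that held no gene start fell and 19 rose, with a median log2-fold change of -0.24 and a median length of 443 bases. Of the 184 that did hold a start, 36 fell and 26 rose, with a median of 0.025. Genes of translation and ribosomes were represented by such peaks. RPL19A fell at its end from 44.5 and 45.1 CPM to 22.0 and 20.2 CPM (-1.08, SE 0.13, edgeR p_adj = 8.72e-11). TEF1, which encodes elongation factor 1 alpha, fell from 61.0 and 52.7 CPM to 28.1 and 29.7 CPM (-0.98, SE 0.12), and YEF3, elongation factor 3, from 29.8 and 25.4 CPM to 16.2 and 12.2 CPM (-0.96, SE 0.15). Promoters of the same lists moved less. Of 70 promoter peaks of cytosolic ribosomal protein genes, 9 rose and 3 fell, and of 31 promoter peaks of translation factors, 2 rose and 4 fell.

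The 10 largest falls all lay outside promoters. The largest was of YDR261C-C, a transposon gene whose peak had 22.8 and 11.7 CPM on Day 3 and 5.25 and 5.37 CPM on Day 7 (-1.72, SE 0.20), and its value ranged from -2.11 to -0.89 over the refits. Next to FLO10, GAL2, TIR4 and PAU17 stood YFL067W at the end of chromosome VI (-1.35, SE 0.11), IMD2 of guanine nucleotide synthesis (-1.26, SE 0.14), LRE1 (-1.22, SE 0.15), the kinase gene CLA4 (-1.19, SE 0.14) and the wall sensor gene WSC3 (-1.09, SE 0.12). IMD2 lies near a chromosome end and has close copies in the IMD family.

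Whether a peak had been called on a day ran parallel to its count, as both come from the same reads. Of 132 peaks that the peak caller had found on Day 3 but not Day 7, 55 fell and 4 rose, and of 126 found on Day 7 but not Day 3, 29 rose and 3 fell. Of 437 peaks found on neither of these days, 142 fell and 14 rose. In all 4 libraries the summed share of the 10% of peaks with the lowest level lay below the range of the other days (1.49% to 2.39% of a library's counts), at 1.35% and 1.22% on Day 3 and 1.05% and 1.12% on Day 7. These peaks were chosen for a low mean level in the same 4 libraries. A lower share there than on the other days is thus partly built in, and nothing is read from it. Peaks outside promoters together held 17.9% and 17.6% of the Day 3 counts and 17.7% and 17.4% of the Day 7 counts.

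Peaks assigned to tRNA genes, which RNA polymerase III transcribes, fell as a class. Of 189, 98 fell and 5 rose (51.9% and 2.65%), with a median log2-fold change of -0.17. They were not weak, with a median level of 175 CPM against 141 CPM over all peaks, and held 4.92% and 4.49% of the counts on Day 3 and 4.27% and 4.30% on Day 7. Of tRNA peaks that overlapped a transposon or long terminal repeat 53 of 103 fell, and of those that did not 45 of 86. Amino acids differed, with 10 of 14 glycine, 6 of 7 proline and 5 of 6 histidine peaks lower, but 3 of 16 for leucine and 0 for tryptophan (7 peaks), tyrosine (6) and cysteine (4). The strongest fall was of tE(UUC)C, a glutamate tRNA on chromosome III (-0.93, SE 0.12). Without the first Day 3 library 72 fell and 12 rose, without the second 127 fell, and without the first or the second Day 7 library 58 or 53 fell. Of 21 peaks of RNA polymerase I and III subunits and factors 3 rose and 2 fell, 2 and 5 without the second Day 3 library.

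The change also differed between chromosomes. The 3 shortest chromosomes had the lowest medians, at -0.17 for I (20 of 47 peaks lower, 4 higher), -0.086 for VI (21 of 78 lower, 3 higher) and -0.18 for III (40 of 95 lower, 7 higher). The longest, IV, had the highest, at 0.056 (98 of 460 higher, 48 lower). Across the 16 chromosomes the median followed length with Spearman's rho of 0.67, as a description, since all chromosomes share the same 4 libraries. Promoter peaks of mRNA genes gave medians of -0.14, -0.052 and -0.12 for I, VI and III and 0.073 for IV. Peaks over 100 kb from an end had medians of -0.18 on I (6 peaks), -0.075 on VI (24 peaks) and -0.042 on III (37 peaks). The second Day 3 library held 1.62% of its counts on chromosome I, above the other 9 libraries, and the Day 7 libraries held 1.51% and 1.52%, within the range of the other days. With the second Day 3 library left out, the median of chromosome I was -0.076, and with the first or second Day 7 library left out its falls numbered 4 or 3. On chromosome III they then numbered 20 in both cases. DNA copy number was not measured apart from accessibility, and its part was not tested.

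**Figure D4:**
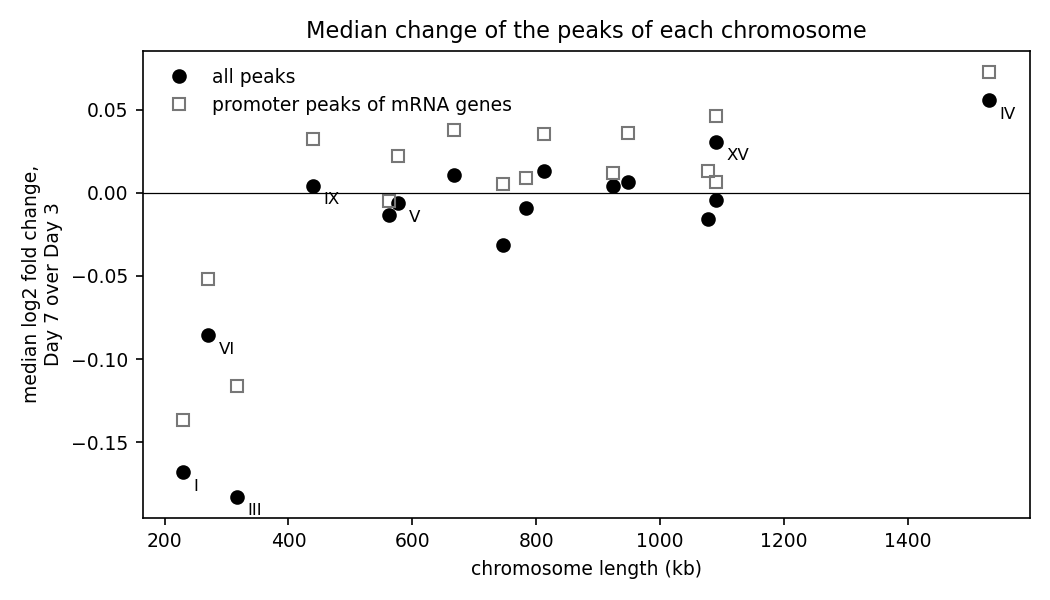
Median log2-fold change from Day 3 to Day 7 (y axis) of the peaks of each of the 16 chromosomes against chromosome length in kb (x axis), for all peaks (black) and for promoter peaks of mRNA genes (grey squares). Chromosomes I, VI and III lie lowest, and IV, with a length of 1532 kb, lies highest at 0.056.

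Chromosome ends showed a related pattern. Within 10 kb of an end 25 of 61 peaks fell and 2 rose, with a median of -0.19, and within 30 kb 78 of 236 fell and 26 rose, with a median of -0.067. A limit of 20 kb gave -0.087 and one of 50 kb gave -0.064, against 0.021 for peaks over 100 kb from an end. Without the first or the second Day 7 library, 42 or 35 peaks within 30 kb fell. Promoters of mRNA genes within 30 kb had 43 falls and 23 rises among 156. The short chromosomes hold a larger part of their peaks near ends, and the share of this in their medians was not tested.

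Among the remaining lists, chromatin remodelers and modifiers had 4 rises and 7 falls among 74 peaks, shares of 5.41% and 9.46%, and without the first Day 3 library 13 rises and 7 falls. Among the falls were ISW2, the ATPase of a remodeling complex (-0.39, SE 0.06), and POB3, a subunit of the FACT histone chaperone (-0.40, SE 0.06), and among the rises BRE2, a subunit of the Set1 methyltransferase complex (0.61, SE 0.11). Histone genes had 0 rises and 1 fall among 6 peaks, the HTA2 peak at the gene end (-0.43, SE 0.14), whereas the peak over the starts of HTA1 and HTB1, assigned to HTA1, changed by -0.084 (edgeR p_adj = 0.491). Ribosome biogenesis had 7 rises and 12 falls among 66 peaks, mitochondrial ribosomal proteins 8 and 4 among 47, amino acid biosynthesis 6 and 12 among 54, and ergosterol and lipid synthesis 1 and 9 among 39. Multidrug and ion transport had 0 rises and 3 falls among 16 peaks, and purine and pyrimidine synthesis 1 and 5 among 28. Autophagy and vacuole genes had 7 rises, led by AMS1, the vacuolar mannosidase (0.44, SE 0.07), and 5 falls among 37. With either Day 7 library left out, the lists of chromatin, ribosome biogenesis, mitochondrial ribosome, amino acid, ergosterol and autophagy genes each had at most 3 rises and 5 falls.

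The called peaks were also placed among the other days, with all 10 libraries on 1 scale. Both Day 7 libraries lay above all 8 others in 334 of the 515 called rises (64.9%) and below them in 427 of the 613 called falls (69.7%), and over all peaks these shares were 15.5% and 20.6%. The Day 3 libraries were below all others in 16.1% of the rises and above all others in 18.4% of the falls, and over all peaks in 7.06% and 6.46%. The calls already set Day 7 apart from Day 3, and the 8 others include Day 3, so these shares are descriptions of the called peaks and nothing is read from their excess over all peaks. ADH2 averaged 774 CPM on Day 3 and 1519 CPM on Day 7, and its 8 libraries of other days lay between 585 and 824 CPM. The GAL10 and GAL2 promoters went another way. Both were highest on Day 3, and their Day 7 levels lay among those of Days 0, 10 and 28. Other named falls were also highest on Day 3, such as those of PGK1, GSY1 and GIT1. GAL80 and the short GAL2 peak were below all other libraries on Day 7. The short GAL2 peak read 20.6 CPM on Day 7 and at least 45.8 CPM elsewhere.

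**Figure D5:**
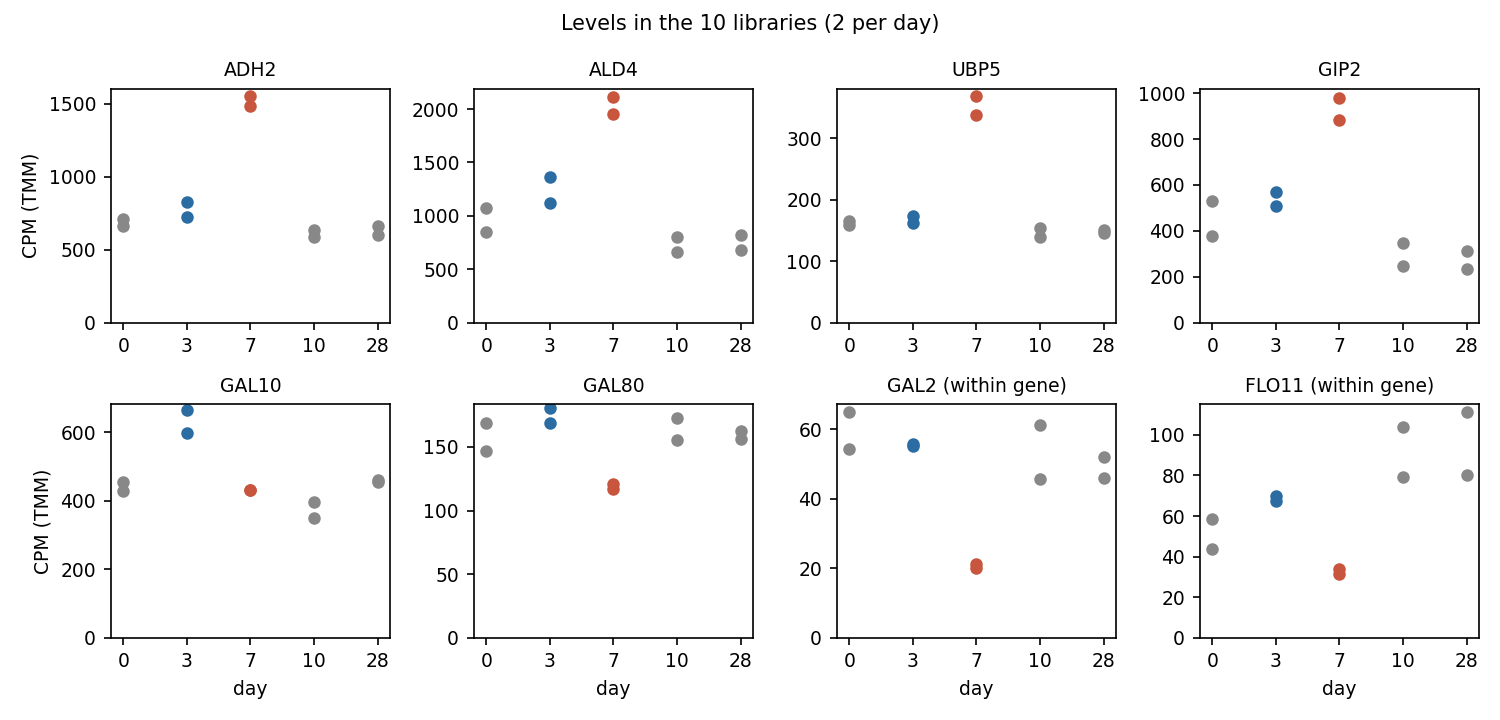
CPM (y axis, from 0) of 8 peaks in the 10 libraries by day (x axis), with Day 3 in blue, Day 7 in red and the other days in grey. ADH2, ALD4, UBP5 and GIP2 are highest on Day 7, the GAL10 promoter is highest on Day 3, and GAL80 and the peaks within GAL2 and FLO11 are lowest on Day 7.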

How the data were processed

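ATAC-seq libraries of revived yeast populations were used, 2 from Day 3 and 2 from Day 7, and all 10 of the series for levels on other days. Per the study's methods, the authors trimmed reads with Trim Galore 0.5.0, aligned them with Bowtie2 2.2.9 to R64, called peaks per day with MACS2 2.1.1, merged them with bedtools 2.30.0 and annotated them with HOMER. They deposited raw counts per merged peak from featureCounts 1.6.3, which were tested here. The deposited normalized counts were not used. How duplicate or multiply aligned reads were treated is not given in the sources used here. Peaks were kept under the gene of the deposited annotation, and 3097 of 3515 gene IDs matched an R64 locus tag. A peak name shortened in the count table was matched by its beginning.

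Days were compared with edgeR 4.0.16 in R 4.3.3 (TMM, filterByExpr, which removed 0 peaks, quasi-likelihood test, Benjamini-Hochberg adjustment at 0.05 over all peaks). SE is the absolute log2-fold change over the square root of F. CPM are TMM-scaled. Replicates differed by more than counting noise, so their number limits precision. The procedure was run on simulated counts drawn with its own fitted dispersion, the same for both days. That run cannot show how the unequal spread of the replicates affects the calls. The lists, motifs and comparisons were chosen with earlier results of these data known. Named were the 10 largest called rises and falls with libraries that do not overlap, up to 3 called rises and 3 falls per list, the highest peaks where fewer than 2 were called, and all GAL network peaks. Names outside this rule were picked after their values were seen. Alternatives covered normalization, test (DESeq2 1.42.0, limma-voom 3.58.1), filters, thresholds, thinning, libraries left out, gene assignment, end distance and motif window. Loess on GC content, promoter-only list counts, counts in the weakest peaks by location and chromosome medians by subset were added after seeing the data.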

Additional observations from a re-analysis of the deposited data

How the results depend on the processing

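Called peaks numbered 1128, of which 1101 stayed called in the same direction under RLE size factors, 808 under total counts, 1019 after loess on level, 1112 after loess on GC content, 745 in DESeq2, 1105 in limma-voom, and 0 were called in the opposite direction in any refit. A joint fit of all 10 libraries called 518 peaks (189 higher, 329 lower). Requiring an absolute log2-fold change of 0.5 left 180 (46 higher, 134 lower). The count of higher peaks was 313 under total counts, 794 after loess on GC content, 323 in DESeq2 and 320 at an adjusted p under 0.01. Fits without 1 of the libraries called 404 to 1426 peaks, 149 to 714 higher and 255 to 800 lower, and all 3 low ends came from leaving out the first Day 7 library. The lone library of a day is then assumed to vary like the other day's pair. Of 180 named called peaks 88 stayed called in every refit that kept them, and 1 reversed, RPN14, from -0.48 to 0.063 after loess on level. The filter on a mean count of at least 500 kept 154 of the 180. No paired analysis was possible because the Day 3 and Day 7 labels share no pairing label, so that fewer than 2 pairs could be formed. Run, day and library quality cannot be told apart with 2 libraries per day from 1 population.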
